A study of Mus musculus with 6 samples.

Results

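The genes described here are 35 genes of blood and lymph vessel endothelium, picked by symbol from the 34665 rows of a bulk RNA count table of mouse tumours. They comprise 23 pan-endothelial genes, 5 genes of sprouting tip cells, 6 genes of venules and leukocyte adhesion, and Prox1, the regulator of lymphatic identity. The tumours were grown from B16, a mouse melanoma line, and are labelled wild type. The RT_ICI tumours had received radiation and an immune checkpoint inhibitor (3 libraries, replicates 1, 2 and 4), and the ICI tumours the inhibitor without radiation (3 libraries, replicates 1, 2 and 3). Both groups therefore carry the inhibitor, and tumours without it were not analysed here. The sources used here do not give the molecule blocked, the radiation dose, the host strain, sex and age, the harvest time or whether the tumour itself was irradiated. The labels do not state that each library came from its own animal, so p-values describe the spread between these libraries, which may be technical.

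Endothelial cells line vessels and are held together by adhesion molecules such as VE-cadherin. Their growth is driven by vascular endothelial growth factor (VEGF), read mainly by the receptor Kdr. At the front of a sprout, tip cells with high VEGF signalling carry the Notch ligand Dll4, which restrains sprouting by the cells beside them. Post-capillary venules are the usual exit of leukocytes from blood, and their endothelium presents selectins, Icam1 and Vcam1 for this purpose.

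The libraries held 22543721 to 45624013 counts, of which the 35 genes took 11431 to 39907. Levels are given in CPM, counts scaled to library size after TMM, a correction for differences in library composition. The groups were compared with edgeR's quasi-likelihood test over 16924 genes that passed the filter on low counts, and the threshold for a call was an adjusted p of 0.05 by the Benjamini-Hochberg method. Of the 35 genes 34 were tested, all but Sele. Library RT_ICI replicate 1 stood apart, with counts on 29748 rows against 22763 to 24891 elsewhere. Transcripts of the mitochondrial genome took 11.5% to 14.7% of counts in RT_ICI and 4.39% to 5.01% in ICI, so this measure separates the groups, and its part in the results below was not tested. With these transcripts left out before scaling, Ackr1 was again the one called gene of the 35. In bulk RNA, fewer endothelial cells and less RNA per cell cannot be told apart. The melanoma genes Pmel, Dct, Tyrp1, Tyr, Mlana, Mitf and Sox10 together took 10072 to 14379 CPM in RT_ICI and 13340 to 15180 CPM in ICI, with Mlana called higher, and every pan-endothelial gene had counts in all 6 libraries.

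Endothelial genes as a whole varied by library more than by treatment. The 23 pan-endothelial genes summed to 826, 483 and 478 CPM in RT_ICI replicates 1, 2 and 4, against 668, 460 and 658 CPM in ICI replicates 1, 2 and 3. The group means were 596 ± 199 CPM in RT_ICI and 595 ± 117 CPM in ICI (SD, n = 3 each). Eng, which varied little between libraries, alone gave 244 CPM of this mean in RT_ICI and 255 CPM in ICI. None of the 23 was called (0 higher and 0 lower by edgeR, by DESeq2 and by limma-voom, and 0 at an unadjusted edgeR p under 0.05), where 9.18% of all tested genes were called and 31.5% had an unadjusted p under 0.05. Their median log2 fold change was 0.10, with 12 positive and 11 negative, beside 0.01 for all tested genes. Without RT_ICI replicate 1 that median was -0.55.

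The same libraries were rich in most of these genes. In 16 of the 23, RT_ICI replicate 1, ICI replicate 1 and ICI replicate 3 were the 3 highest libraries, an arrangement held by 7.56% of all tested genes. RT_ICI replicate 1 was the highest library for 14 of the 23, and RT_ICI replicate 4 was the lowest for 14. Averaged over the 23 genes on the log2 scale, the level relative to each gene's mean was 174%, 85.3% and 58.4% in RT_ICI replicates 1, 2 and 4, against 130%, 66.2% and 134% in ICI replicates 1, 2 and 3. Each group thus held libraries rich and poor in endothelial RNA.

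**Figure D1:**
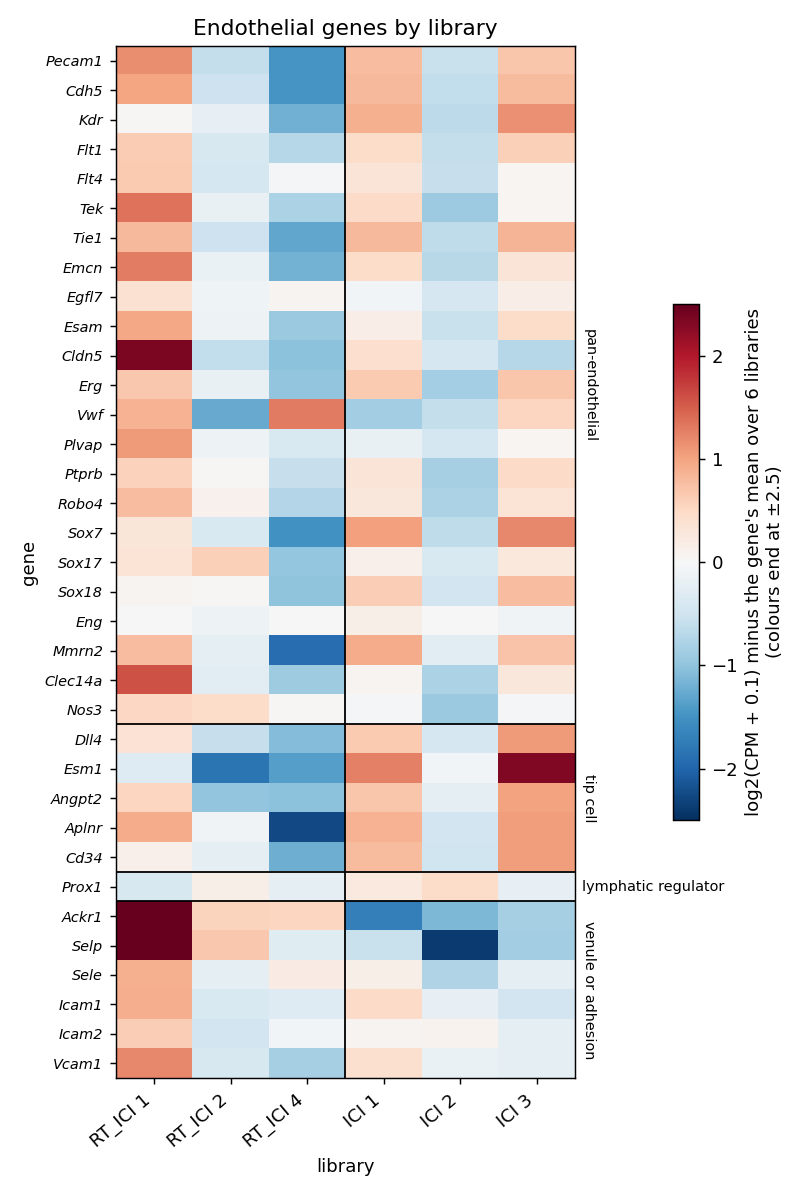
Heat map of the 35 genes (rows, by group) in the 6 libraries (columns, RT_ICI left), coloured by log2(CPM + 0.1) minus the gene's mean, with colours ending at ±2.5. Most pan-endothelial rows are red in RT_ICI 1, ICI 1 and ICI 3 and blue in RT_ICI 4 and ICI 2, whereas Ackr1 and Selp are higher in all RT_ICI libraries and Esm1 is lower in all of them.

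Junction and surface genes showed this library pattern plainly. Pecam1, the CD31 adhesion molecule of endothelial contacts, had 61.4, 18.3 and 9.85 CPM in RT_ICI, against 47.2, 18.6 and 44.8 CPM in ICI. Cdh5, which encodes VE-cadherin, had 51.7, 18.2 and 9.38 CPM in RT_ICI, against 45.7, 17.0 and 45.5 CPM in ICI. For both, the highest and the lowest of the 6 libraries were RT_ICI libraries. Esam, another junctional adhesion molecule, averaged 17.0 ± 11.2 CPM in RT_ICI and 15.9 ± 5.28 CPM in ICI. Cldn5, the claudin of tight endothelial junctions, had 45.3, 5.70 and 4.25 CPM in RT_ICI, against 11.8, 6.54 and 5.35 CPM in ICI. Only RT_ICI replicate 1 was high, and the log2 fold change of Cldn5, 1.22 (SE 0.99), was -0.66 without that library. Emcn, a sialomucin of capillaries and veins, was also highest there, at 27.8 CPM.

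Growth factor receptors gave no called difference. Kdr, VEGF receptor 2, had 12.2, 10.3 and 5.09 CPM in RT_ICI, against 22.3, 7.55 and 26.2 CPM in ICI. The ranges overlapped through ICI replicate 2, and the log2 fold change was -1.02 (SE 0.51, adjusted p = 0.217, edgeR). Flt1, VEGF receptor 1, averaged 26.1 ± 13.5 CPM in RT_ICI and 31.8 ± 12.2 CPM in ICI. Flt4, VEGF receptor 3, which lymphatic endothelium and sprouts share, averaged 9.81 ± 3.88 CPM in RT_ICI and 8.80 ± 2.67 CPM in ICI. The angiopoietin receptor Tek and its partner Tie1 had log2 fold changes of 0.46 (SE 0.63) and -0.56 (SE 0.62). Eng, the TGF-beta co-receptor endoglin, was the steadiest of the 23, at 252, 229 and 251 CPM in RT_ICI, against 277, 252 and 235 CPM in ICI. Its highest library exceeded its lowest 1.21-fold, whereas the median of that ratio over the 23 genes was 3.74. In RT_ICI replicate 4 Eng was at 251 CPM, where Pecam1 was at 9.85 CPM. The part of cells other than endothelium in the Eng level was not tested. Ptprb, the phosphatase of VE-cadherin and Tek, and the guidance receptor Robo4 had log2 fold changes of -0.01 (SE 0.40) and 0.14 (SE 0.43).

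The transcription factors of endothelial identity were low. Erg, an ETS factor, averaged 3.85 ± 2.20 CPM in RT_ICI and 4.88 ± 2.40 CPM in ICI. Of the SoxF factors, Sox7 averaged 1.36 ± 0.820 CPM in RT_ICI and 3.01 ± 1.67 CPM in ICI, with a log2 fold change of -1.13 (SE 0.61, adjusted p = 0.236, edgeR). Sox18 and Sox17 had log2 fold changes of -0.63 (SE 0.40) and 0.12 (SE 0.43). An antisense transcript, Gm37587, covers 16.8% of the Sox17 exons, and reads of such a pair cannot be told apart where strand was not used in counting.

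Secreted and matrix genes departed from the common pattern in places. Vwf, the von Willebrand factor stored in endothelium and platelets, had 35.1, 7.96 and 47.4 CPM in RT_ICI, against 10.4, 12.6 and 27.9 CPM in ICI. RT_ICI replicate 4, poorest in most endothelial genes, was thus the richest in Vwf. Set against the mean of Pecam1 and Cdh5, Vwf stood at 493% in RT_ICI replicate 4, at 62.1% and 43.6% in RT_ICI replicates 1 and 2, and at 22.4% to 70.6% in ICI. The 6 platelet genes did not share 1 highest library. In RT_ICI replicate 4 Pf4 and Ppbp were at their highest, at 12.5 and 0.653 CPM, whereas Gp1ba had no counts there. Itga2b was highest in RT_ICI replicate 1, at 17.0 CPM, Gp9 in RT_ICI replicate 2, at 0.924 CPM, and Itgb3 in ICI replicate 3, at 39.9 CPM. The part of platelets in the Vwf level was not tested. Egfl7, a secreted regulator of vessel lumen formation, moved little between libraries, with 52.6, 37.1 and 42.2 CPM in RT_ICI, against 38.4, 29.8 and 44.9 CPM in ICI. Plvap, the diaphragm protein of fenestrated endothelium, averaged 59.1 ± 34.3 CPM in RT_ICI and 41.4 ± 6.86 CPM in ICI. Mmrn2 and Clec14a, a matrix protein and the lectin receptor that binds it, had log2 fold changes of -0.63 (SE 0.64) and 0.66 (SE 0.68).

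Nos3, endothelial nitric oxide synthase, was the one pan-endothelial gene whose groups did not overlap. It had 8.05, 7.68 and 5.69 CPM in RT_ICI, against 5.49, 2.89 and 5.46 CPM in ICI. The log2 fold change was 0.63 (SE 0.31, adjusted p = 0.196, edgeR). Absence of overlap was common in this table, at 37.2% of all tested genes. It held for 4 of the 34 tested genes here, 3 of them higher in every RT_ICI library (17.8% of all tested genes) and 1 lower in every one (19.4%). The antisense gene Gm15587 covers 25.2% of the Nos3 exons, so some reads may belong to either.

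Per kilobase of transcript, Eng stood far above the rest, at 71.3 CPM per kb in RT_ICI and 74.4 CPM per kb in ICI. Plvap came next at 29.7 and 20.8 CPM per kb in RT_ICI and ICI, followed by Egfl7 at 23.6 and 20.2 CPM per kb in the same groups. At the low end were Sox7, at 0.413 CPM per kb in RT_ICI and 0.913 CPM per kb in ICI, Tek, at 0.424 CPM per kb in RT_ICI and 0.308 CPM per kb in ICI, and Clec14a, at 0.480 CPM per kb in RT_ICI and 0.305 CPM per kb in ICI.

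**Figure D2:**
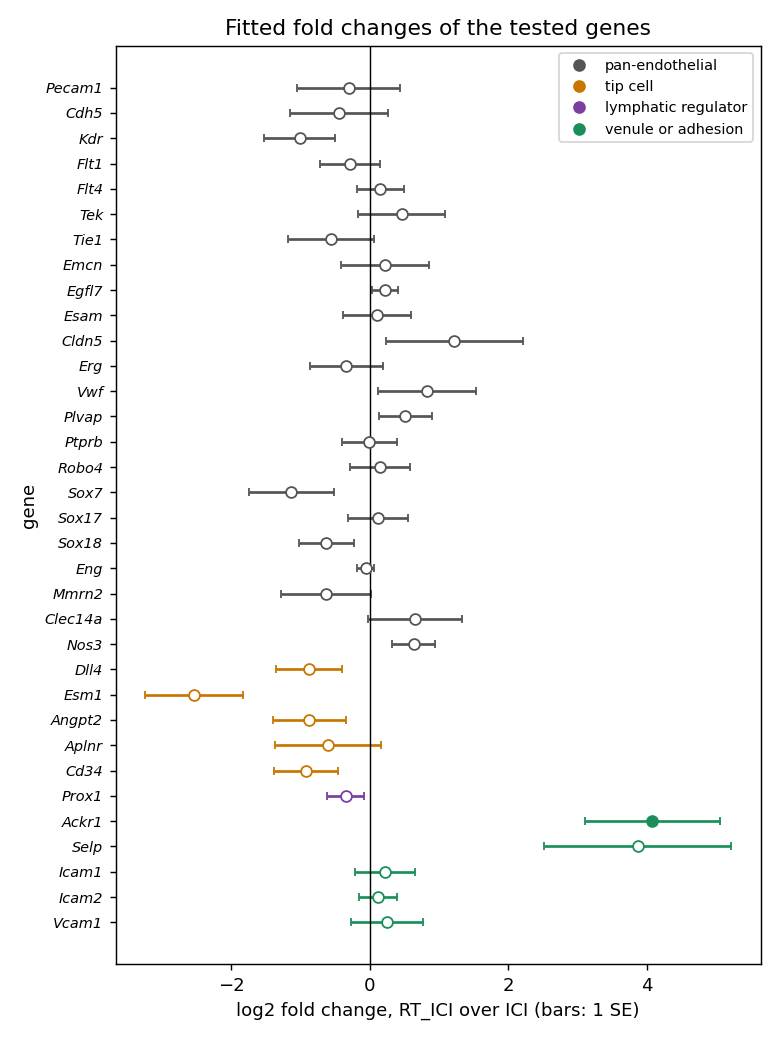
Fitted log2 fold change of RT_ICI over ICI for the 34 tested genes (points, with bars of 1 SE), coloured by group, where a filled point marks an adjusted p under 0.05. The pan-endothelial genes spread on both sides of 0, all 5 tip-cell genes lie below it, and Ackr1 and Selp lie far to the right, with Ackr1 the one filled point.

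All 5 tip-cell genes had negative log2 fold changes, with a median of -0.88, and none was called (0 by edgeR and by limma-voom, 1 lower by DESeq2, and 1 lower at an unadjusted edgeR p under 0.05). Over all 16924 tested genes 8287 were negative, edgeR called 4.72% lower, and 15.8% were lower at an unadjusted p under 0.05. DESeq2 called more genes lower over the whole table than edgeR did. With replicate number as a block the tip-cell median was -0.23 and Aplnr was at 0.23. Esm1, the secreted proteoglycan endocan of tip cells, had 7.59, 2.59 and 3.59 CPM in RT_ICI, against 22.9, 9.08 and 47.8 CPM in ICI. Every RT_ICI library lay below every ICI library. The log2 fold change was -2.54 (SE 0.71), a 5.82-fold lower level in RT_ICI, with an adjusted p of 0.0723 in edgeR. DESeq2 called Esm1 (adjusted p = 0.0111) and limma-voom did not (adjusted p = 0.0830). In the fits that left out 1 library its log2 fold change ran from -3.12 to -1.82, and it was called without ICI replicate 2 (adjusted p = 0.0466). The 250 bases before the RefSeq start of Esm1 are shown because no other tested member was as far below ICI. They lie at chr13:113209409-113209658 on the plus strand of GRCm38.p6, and capitals mark AGGAA or its reverse complement TTCCT, the core read by ETS factors such as Erg.
Esm1: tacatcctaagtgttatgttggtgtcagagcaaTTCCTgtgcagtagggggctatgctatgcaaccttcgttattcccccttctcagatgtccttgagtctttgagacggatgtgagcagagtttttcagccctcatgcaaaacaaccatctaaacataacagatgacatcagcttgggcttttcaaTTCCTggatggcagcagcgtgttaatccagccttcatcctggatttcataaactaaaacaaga
This stretch held 2 such cores. It held no CACCC, the core of Kruppel-like factors, no TGGGAA, the core of the Notch partner RBPJ, and no ACGTG, the core of hypoxia-inducible factors, on either strand. Of all 32851 RefSeq promoter stretches of this length, 60.3% held AGGAA, 52% CACCC, 21.6% TGGGAA and 16.6% ACGTG.

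The other tip-cell genes overlapped between the groups. Angpt2, the angiopoietin that destabilizes vessels, had 38.2, 13.3 and 12.9 CPM in RT_ICI, against 42.9, 22.2 and 53.2 CPM in ICI. RT_ICI replicate 1 reached into the ICI range, and without it Angpt2 was called lower (log2 fold change -1.59, adjusted p = 0.0407, edgeR), against -0.88 (SE 0.53, adjusted p = 0.297) with it. Dll4 had 10.7, 5.54 and 3.87 CPM in RT_ICI, against 13.2, 6.19 and 17.6 CPM in ICI. Cd34, a sialomucin of endothelium and of blood progenitors, averaged 9.41 ± 4.02 CPM in RT_ICI and 17.9 ± 8.43 CPM in ICI. Aplnr, the apelin receptor, had 8 counts in RT_ICI replicate 4 and 61 to 218 in the other libraries, and its log2 fold change was -0.60 (SE 0.76).

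Because the amount of endothelial RNA differed between libraries, the tip-cell genes were also compared at equal pan-endothelial level, with the library's mean log2 level of the 23 genes as a covariate in edgeR. This fit was chosen after the data were seen. It called 3 of the 5 tip-cell genes lower, beside 15.3% of all tested genes, or 7.25% higher and 8.08% lower. Esm1 had a log2 difference of -2.29 (SE 0.48, adjusted p = 0.0355), Angpt2 of -0.82 (SE 0.18, adjusted p = 0.0264) and Dll4 of -0.75 (SE 0.20, adjusted p = 0.0442). Cd34 was at -0.73 (SE 0.24, adjusted p = 0.0740) and Aplnr at -0.63 (SE 0.37, adjusted p = 0.266). As a plain ratio, Esm1 was 13.4%, 14.2% and 37.4% of the mean of Pecam1 and Cdh5 in RT_ICI replicates 1, 2 and 4, against 49.4%, 51.0% and 106% in ICI replicates 1, 2 and 3. Of all tested genes 0.479% had ratios to Pecam1 and Cdh5 that were lower in every RT_ICI library, and 4.24% higher in every one. Pecam1 and Cdh5 were lowest in RT_ICI replicate 4, at 9.85 and 9.38 CPM. This raises the ratio there for genes that do not follow them, so these shares do not measure how unusual the Esm1 ratio is. The ratios of Angpt2, Dll4, Aplnr and Cd34 overlapped between the groups.

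**Figure D3:**
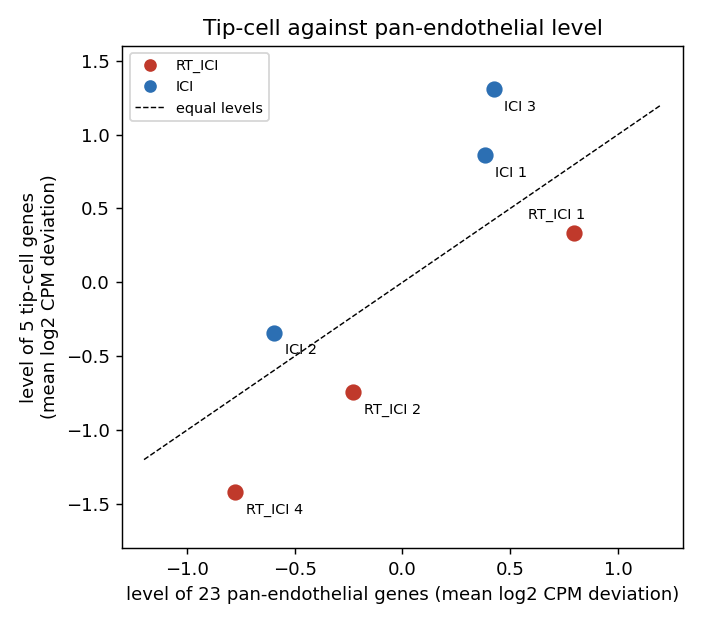
Mean log2 CPM deviation of the 5 tip-cell genes (vertical) against that of the 23 pan-endothelial genes (horizontal), 1 point per library, with the line of equal levels. The 3 RT_ICI points lie below the line and the 3 ICI points above it.

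Tip-cell genes outside the 35 were taken as a list of 15. Of these 2 fell (Apln and Unc5b), 1 rose (Adm, by 0.91 on the log2 scale) and 12 did not pass, beside 4.72% of all tested genes called lower and 4.46% higher. The median log2 fold change was -0.73, and 0.01 for all tested genes. Apln, the ligand of Aplnr made by tip cells, had 7.09, 4.03 and 5.09 CPM in RT_ICI, against 43.7, 13.6 and 51.9 CPM in ICI. The groups did not overlap, and Apln fell by 2.75 on the log2 scale (SE 0.52, adjusted p = 0.0346, edgeR). DESeq2 called Apln too (adjusted p = 8.54e-08). It was not called with limma-voom (adjusted p = 0.0520) or in edgeR without the filter on low counts (adjusted p = 0.0937). Unc5b, a netrin receptor of sprouts and arteries, fell to 4.57 ± 1.89 CPM in RT_ICI, against 12.2 ± 0.593 CPM in ICI (log2 fold change -1.42, SE 0.32). It was called with DESeq2 (adjusted p = 0.000621) and limma-voom (adjusted p = 0.0374). After the length and GC correction in edgeR it was not (adjusted p = 0.0529). The matrix genes Col4a1 and Col4a2, the growth factor binding protein Igfbp3 and the adhesion molecule Mcam were the most abundant of the 12, at log2 fold changes of -0.63, -0.44, -0.91 and -0.15.

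The venule genes Ackr1 and Selp were scarce and higher in every RT_ICI library. Ackr1, the atypical chemokine receptor of venular endothelium and red cells, had 52, 17 and 8 counts in RT_ICI, against 0, 2 and 4 counts in ICI. In CPM it had 1.84, 0.383 and 0.373 in RT_ICI, against 0, 0.0503 and 0.0836 in ICI. It was the one called gene of the 35 (1 of 34 tested, where 4.46% of all tested genes were called higher), with a log2 fold change of 4.08 (SE 0.97, adjusted p = 0.0431, edgeR). The fold rests on 6 counts in the ICI libraries together. Ackr1, and likewise Selp, passed the filter on low counts through the RT_ICI libraries alone, so a difference was built into their being tested, and nothing is read from their share among the tested genes. Leaving out any 1 of the 6 libraries ended the call, and the adjusted p reached 0.157 when ICI replicate 1 was the one left out. Over these fits the log2 fold change lay between 2.90, when RT_ICI replicate 1 was dropped, and 4.83. With limma-voom the adjusted p was 0.0527, and 0.0620 after a correction for transcript length and GC content. An exon of the same-strand gene Cadm3 overlaps 25.7% of the Ackr1 exons, so some reads may belong to either. Cadm3 had 34, 6 and 11 counts in RT_ICI, against 4, 3 and 13 counts in ICI, and was not called (adjusted p = 0.159).

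Selp, the selectin stored in Weibel-Palade bodies and platelet granules, had 157, 33 and 7 counts in RT_ICI, against 9, 0 and 9 counts in ICI. In CPM it had 5.57, 0.744 and 0.327 in RT_ICI, against 0.259, 0 and 0.188 in ICI. RT_ICI replicate 1 was far above the rest, and RT_ICI replicate 4 only just above ICI replicate 1. The opposite-strand genes Gm16548 and Gm16587 cover 9.93% and 4.21% of the Selp exons. The log2 fold change was 3.87 (SE 1.35, adjusted p = 0.110, edgeR), and 1.88 (adjusted p = 0.197) without RT_ICI replicate 1. DESeq2 called Selp (adjusted p = 0.00695) and limma-voom did not (adjusted p = 0.137). At equal pan-endothelial level the log2 difference was 3.97 (SE 0.78) for Ackr1 and 3.77 (SE 0.53) for Selp, values that carry the same limit from the filter. Their ratios to the mean of Pecam1 and Cdh5 were 2.10% to 3.88% in RT_ICI against at most 0.282% in ICI for Ackr1, and 3.40% to 9.85% in RT_ICI against at most 0.557% in ICI for Selp.

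The 250 bases before the RefSeq start of Selp are shown for comparison with those of Esm1, which differed from the ICI group in the other direction. They lie at chr1:164115014-164115263 on the plus strand of GRCm38.p6, with AGGAA or TTCCT in capitals.
Selp: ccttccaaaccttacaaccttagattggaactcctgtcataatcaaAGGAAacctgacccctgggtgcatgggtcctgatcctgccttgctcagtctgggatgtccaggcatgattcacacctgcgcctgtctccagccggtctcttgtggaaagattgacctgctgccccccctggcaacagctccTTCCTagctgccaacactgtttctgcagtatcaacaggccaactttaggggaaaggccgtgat
The Selp stretch held 2 ETS cores, 1 CACCC core and neither TGGGAA nor ACGTG. The nearest ETS core began 63 bases before the start in Selp and in Esm1 alike. The matching stretch of Ackr1 lies inside an exon of Cadm3 and is not printed. Annotated exons of Ackr1 itself also cover 170 and 96 of its 250 bases, so it does not lie wholly before the gene. It held 4 ETS cores, 2 CACCC cores and 1 TGGGAA, counts that are not comparable with those of Selp and Esm1 for that reason. Promoters of 20 of the 35 genes were in the RefSeq table. On either strand 16 of these 20 held AGGAA, 15 CACCC, 7 TGGGAA and 1 ACGTG. Over all 32851 stretches the shares were 60.3%, 52%, 21.6% and 16.6% in the same order. A gene was counted if any of its stretches held the core, whereas the shares are per stretch. The counts are therefore not a measure of enrichment.

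Of 4 lists of other cells set beside Ackr1 and Selp, the fat cell genes alone had summed levels that did not overlap between the groups. The sum of the 8 fat cell genes was 149 to 262 CPM in RT_ICI and 39.7 to 81.5 CPM in ICI. Fabp4 supplied most of it, at 90.6 to 183 CPM in RT_ICI and 39.0 to 55.7 CPM in ICI. Plin4 and Fabp4 were called higher among the 7 tested, beside 4.46% of all tested genes. Adipoq, Plin1, Pck1 and Lep overlapped between the groups, while Cfd, Cidec, Plin4 and Fabp4 were higher in every RT_ICI library. Plin1, Cidec, Lep and Pck1 had no counts in ICI replicates 1 and 2 but 63, 70, 43 and 24 counts in ICI replicate 3. That library was the highest of the 6 for Plin1, Adipoq and Lep, and Lep had at most 2 counts in any RT_ICI library. The summed level of 7 skeletal muscle genes was 2216, 971 and 17.2 CPM in RT_ICI replicates 1, 2 and 4, against 220, 176 and 2.55 CPM in ICI replicates 1, 2 and 3, so the groups overlapped. Platelet genes, a list of 6, summed to 33.8 to 60.4 CPM in RT_ICI and 35.3 to 48.8 CPM in ICI, and of these Pf4 was called higher and Itga2b was not (17.0 CPM in RT_ICI replicate 1, adjusted p = 0.0813). Red cell genes, chosen after values were seen, summed to 64.8 to 264 CPM in RT_ICI and 136 to 2722 CPM in ICI, with the highest level in ICI replicate 3. The part of any of these in the Ackr1 and Selp levels was not tested.

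The adhesion genes used by activated endothelium did not share this difference. Icam1, the ligand of leukocyte integrin LFA-1, had 7.23, 2.88 and 2.99 CPM in RT_ICI, against 5.32, 3.27 and 2.68 CPM in ICI. Vcam1, the ligand of integrin VLA-4, had 13.7, 4.44 and 3.27 CPM in RT_ICI, against 7.82, 5.23 and 5.02 CPM in ICI. Icam2, present on resting endothelium, averaged 19.5 ± 7.77 CPM in RT_ICI and 18.0 ± 2.15 CPM in ICI. For all 3 genes RT_ICI replicate 1 was the highest library and the groups overlapped. Their log2 fold changes were 0.22 (SE 0.44), 0.24 (SE 0.52) and 0.11 (SE 0.27), and without RT_ICI replicate 1 each was negative. Sele, the selectin induced by inflammatory cytokines, had 6, 2 and 2 counts in RT_ICI, against 3, 0 and 2 counts in ICI, and did not pass the filter on low counts. Icam1, Vcam1 and Icam2 are also found on leukocytes or other stromal cells, so their bulk level is not endothelial alone.

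**Figure D4:**
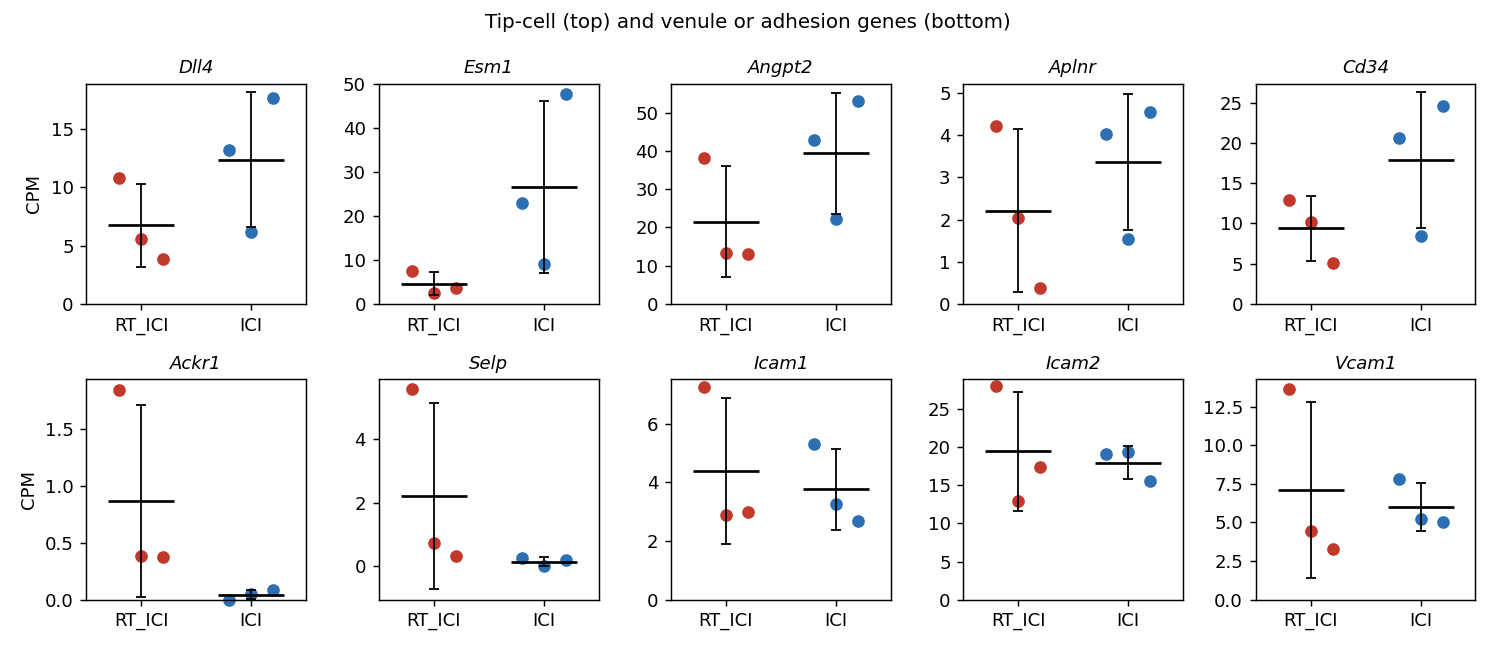
CPM of 5 tip-cell genes (top) and 5 venule or adhesion genes (bottom) in RT_ICI (red, left) and ICI (blue, right), 1 point per library, with the mean (line) and SD (bar, n = 3). Esm1 is lower in all RT_ICI libraries, Ackr1 and Selp are higher in all of them with 1 high library each, and the other genes overlap.

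On the leukocyte side, 11 ligands and partners of these adhesion molecules were tested. The test called 2 of them lower, 0 higher and 9 neither way. Over all tested genes 4.72% were called lower. At an unadjusted p under 0.05 edgeR gave 5 lower and 0 higher, where 15.8% of all tested genes were lower. By adjusted p, DESeq2, which called more genes lower over the whole table, called 4 lower and 0 higher. With limma-voom 2 were lower and 0 higher. Itga4, the alpha subunit of the Vcam1 receptor VLA-4, fell to 26.2 ± 6.44 CPM in RT_ICI, against 53.0 ± 12.0 CPM in ICI (log2 fold change -1.02, SE 0.23, adjusted p = 0.0404, edgeR). Glg1, a Golgi glycoprotein that can bind E-selectin, had 46.4, 22.4 and 36.3 CPM in RT_ICI, against 87.7, 67.2 and 64.2 CPM in ICI, and fell by 1.06 on the log2 scale. Both lost their call after the length and GC correction (adjusted p = 0.0776 for Itga4 and 0.0881 for Glg1). Cd44, Itgb1, Itgb2 and Itgal, the most abundant of the others, had log2 fold changes of -0.46, -0.51, 0.01 and -1.68.

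Ligands and receptors of vessel growth, with Hes1 beside them, were taken as a list of 20, of which 17 were tested. Of these 4 rose, 1 fell and 12 did not pass, beside 4.46% of all tested genes called higher and 4.72% lower. Jag2, a Notch ligand, had 28.9, 33.5 and 27.1 CPM in RT_ICI, against 10.6, 8.53 and 11.8 CPM in ICI, and rose 2.90-fold (log2 fold change 1.53, SE 0.18, adjusted p = 0.0189, edgeR). Hes1, a repressor transcribed under Notch signalling, had 21.5, 19.6 and 21.8 CPM in RT_ICI, against 7.82, 9.18 and 8.20 CPM in ICI, a 2.49-fold rise. Hey1, of the further endothelial genes below, had 1.24, 0.856 and 0.560 CPM in RT_ICI, against 3.54, 1.33 and 3.24 CPM in ICI. It was thus lower in every RT_ICI library (log2 fold change -1.60, SE 0.48, adjusted p = 0.0684, edgeR). Dll1, Jag1, Notch1 and Notch4, of this list, were not called, at log2 fold changes of 1.59, -0.47, -0.66 and -0.28. Adm, the vasoactive peptide adrenomedullin, rose 1.88-fold to 69.5 ± 9.89 CPM in RT_ICI, against 36.9 ± 4.35 CPM in ICI. Vegfd, a ligand of Flt4, rose to 0.986 ± 0.179 CPM in RT_ICI, against 0.185 ± 0.112 CPM in ICI. It had 22, 49 and 23 counts in RT_ICI, against 4, 5 and 15 counts in ICI. Its passage through the filter on low counts rested on the RT_ICI libraries, so a difference was built into its being tested. A minimum of 1 CPM in 3 libraries removed Vegfd. The fall was that of Apln. None of the 5 called genes overlapped between groups. Vegfa, Nrp2, Vegfb and Acvrl1, the most abundant of the rest, had log2 fold changes of 0.26, -0.58, 0.20 and 0.29.

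The test called 1 of 28 further endothelial genes lower, 0 higher and 27 neither way, with a median log2 fold change of -0.25. That count is near the 4.72% of all tested genes called lower, and the 4 lower and 0 higher at an unadjusted edgeR p under 0.05 are near the 15.8% lower over all tested genes. By adjusted p, DESeq2 called 2 lower and 0 higher, and limma-voom 1 lower and 0 higher. The gene called was Ephb4, the ephrin receptor of venous endothelium, at 29.3, 23.2 and 23.1 CPM in RT_ICI, against 49.0, 39.6 and 39.9 CPM in ICI (log2 fold change -0.76, SE 0.16, adjusted p = 0.0346, edgeR). Ets1, Tspan7, Mef2c and Cd93 were the most abundant of the others and had log2 fold changes of -0.34, -0.14, 0.09 and -1.25. Of 6 genes that respond to blood flow 1 rose, beside 4.46% of all tested genes called higher. This was Klf2, a transcription factor induced by laminar shear. It had 21.6, 18.0 and 18.2 CPM in RT_ICI, against 5.87, 5.64 and 4.39 CPM in ICI (log2 fold change 1.86, SE 0.19, adjusted p = 0.0189, edgeR). Pecam1 had 61.4, 18.3 and 9.85 CPM in the same RT_ICI libraries. At equal pan-endothelial level the log2 differences of Klf2, Jag2, Hes1, Adm and Ephb4 were 1.87, 1.56, 1.31, 0.92 and -0.74. That fit does not show which cells the RNA came from, and the part of endothelium in these bulk levels was not tested. Klf4, Nos3, Thbd and Nqo1, the most abundant others of the 6, did not pass, with log2 fold changes of 1.10, 0.63, 0.83 and 0.64. Calls of these genes depended on single libraries, as 0 genes in the whole table were called without ICI replicate 1 or without RT_ICI replicate 2. The log2 fold changes without 1 library ran from 1.73 to 1.93 for Klf2, from 1.41 to 1.63 for Jag2, from 1.26 to 1.38 for Hes1, from -0.88 to -0.67 for Ephb4 and from -3.16 to -2.42 for Apln.

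**Figure D5:**
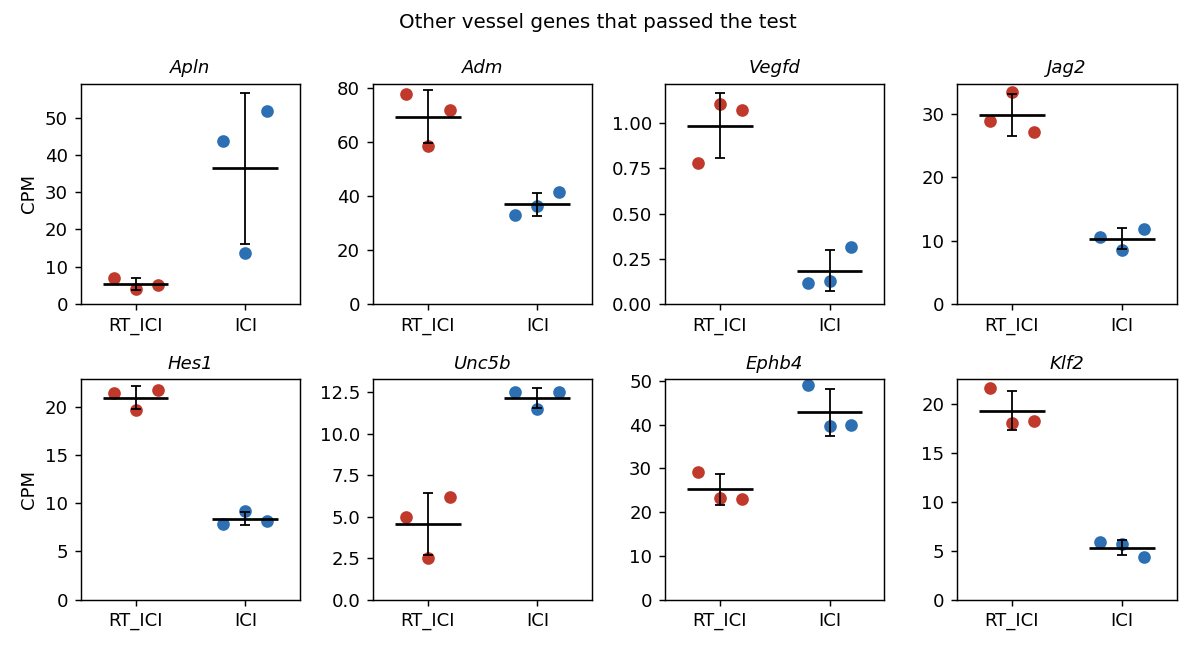
CPM of 8 genes from the vessel lists, outside the 35, that passed the test, in RT_ICI (red, left) and ICI (blue, right). Each panel has 1 point per library, with the mean (line) and SD (bar, n = 3). The groups do not overlap in any of the 8 panels, with Adm, Vegfd, Jag2, Hes1 and Klf2 higher and Apln, Unc5b and Ephb4 lower in RT_ICI.

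Lymphatic endothelium gave no called gene. Prox1 had 4.47, 6.54 and 4.95 CPM in RT_ICI, against 7.04, 8.18 and 5.10 CPM in ICI (log2 fold change -0.35, SE 0.27, adjusted p = 0.395, edgeR). Its groups overlapped, and ICI replicate 2 was the highest library. Lyve1, the hyaluronan receptor of lymphatic vessels and some macrophages, had 21.5, 5.86 and 1.87 CPM in RT_ICI, against 3.71, 1.31 and 3.49 CPM in ICI (adjusted p = 0.224). Mmrn1 had no counts in RT_ICI replicate 4, where Prox1 was at 4.95 CPM. Of 8 lymphatic genes 0 were called by edgeR, by DESeq2 and by limma-voom, and 0 had an unadjusted p under 0.05 in edgeR. Over all tested genes edgeR called 9.18%, and 31.5% had an unadjusted p under 0.05.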

How the data were processed

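Bulk RNA of 6 tumour libraries was analysed from a table of whole-number counts per Ensembl gene deposited by the authors. Per the submitters' processing notes, HISAT2 was used with GRCm38 (mm10). The counting tool, annotation release and strand setting were not given in the sources used here. Rows were matched by symbol. All 35 genes, the other lists and the tests were chosen with earlier results of these data known.

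Counts were filtered with filterByExpr, scaled by TMM and tested with the robust quasi-likelihood method of edgeR 4.0.16 in R 4.3.3, without a block for replicate number, RT_ICI over ICI. The workflow was tested on simulated data. SE values derive from the coefficient and its F statistic. Named were all 35 genes, every called gene of the other lists and up to 4 of their most abundant uncalled genes. Also named, picked after values were seen, were Lyve1, Mmrn1, Hey1, Dll1, Jag1, Notch1, Notch4, Glycam1, Chst4, Madcam1, Gp1ba and the fat cell genes at 0. Cadm3 and the red cell list were also added then. Alternatives are given with the sensitivity results and include DESeq2 1.42.0 and limma-voom (limma 3.58.1). Exon overlaps and lengths came from GENCODE M21 (33858 of 34665 identifiers matched), and promoter sequences from RefSeq on GRCm38.p6. A search with blastn (95% identity, 200 bases) against other genes' transcripts found only overlapping genes. No library pair agreed within sampling noise (chi-square per degree of freedom at least 36.3).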

Additional observations from a re-analysis of the deposited data

How the results depend on the processing

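Over all tested genes 754 were higher and 799 lower. The counts were 1046 and 497 with upper-quartile scaling, which raised the share of higher calls, 1121 and 1507 with no filter on low counts, 1746 and 1703 with DESeq2, 297 and 213 after the length and GC correction, 1802 and 1833 at an adjusted p under 0.1, and 1227 and 1368 with the endothelial level as a covariate. Without 1 library they ran from 0 to 1564 higher and from 0 to 1545 lower. Of the 35 genes 1 was called higher and 0 lower. With DESeq2 these were 2 and 1 (Ackr1, Selp and Esm1), at an adjusted p under 0.1 there was 1 lower, and 0 were higher with limma-voom, after the length and GC correction or with a minimum of 1 CPM in 3 libraries, which removed Ackr1. Without 1 library 0 were higher and 0 to 1 lower. The replicate numbers are shared only for 1 and 2, and nothing in the labels says that they pair animals. With the replicate block the counts were 400 and 245 over all genes and 2 and 1 among the 35 genes (Ackr1 and Selp higher, Esm1 lower). Deviations from the group mean correlated at 0.35 for number 1 and 0.09 for number 2, across genes. The cause of these shifts was not tested. Under 16 alternatives 13 of the 34 tested genes kept their sign, among them Esm1, Angpt2, Dll4, Cd34, Kdr, Nos3, Ackr1 and Selp (15 alternatives for the last 2). With the replicate block the median log2 fold change was -0.23 for tip-cell genes (-0.88 without it), where Dll4 was at -0.23 and Aplnr at 0.23, and 0.38 for pan-endothelial genes (0.10 without it). These shifts of medians were smaller than 1 SD between libraries. The low counts of Ackr1, Selp and Sele limit what can be said of them.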

Other observations

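Genes of high endothelial venules, the vessels through which lymphocytes enter lymph nodes, were near the limit of detection. Glycam1 and Chst4 each had counts in 1 library only, RT_ICI replicate 1, at 0.0354 CPM. Madcam1 lay at 0.0450 to 0.284 CPM in RT_ICI and at 0.0252 to 0.105 CPM in ICI. None of these 3 passed the filter on low counts. Ccl21a, a chemokine of these venules and of lymphatic vessels, had 3.90, 1.17 and 0 CPM in RT_ICI, against 5.09, 0.503 and 0 CPM in ICI, so that each group held a library at 0. Chst2 and Gcnt1, enzymes that build selectin ligands, had log2 fold changes of 0.34 and -0.05 and were not called.

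Mural cells, which wrap vessels, also varied by library. Rgs5, a pericyte gene, had 23.6, 22.6 and 13.8 CPM in RT_ICI, against 32.3, 23.1 and 79.6 CPM in ICI (log2 fold change -1.17, SE 0.49, edgeR). Pdgfrb averaged 20.0 ± 1.36 CPM in RT_ICI and 18.8 ± 5.23 CPM in ICI. Des went the other way from Rgs5, with 536, 153 and 27.2 CPM in RT_ICI, against 89.0, 57.7 and 9.22 CPM in ICI. Its groups overlapped, and its log2 fold change was 2.20 (SE 1.31). That of Acta2 was -1.06 (SE 0.42). Of 11 mural genes, 5 with positive and 6 with negative log2 fold changes, 0 were called by edgeR. At an unadjusted edgeR p under 0.05 Acta2 was the 1 lower gene and 0 were higher. DESeq2 called 2 lower and limma-voom 0. Over all tested genes edgeR called 9.18%, and 15.8% were lower at an unadjusted p under 0.05.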
